A study of Mus musculus with 16 samples.

Results

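Proliferation in the hippocampus was followed through 45 genes of the cell cycle: 14 genes of S phase and DNA replication, 2 G1 cyclins and 29 genes of G2 phase and mitosis. The genes were chosen by symbol, and every probe set that the array annotation gave to 1 of these symbols was taken. Such a probe set existed for 44 of the 45 genes, of 18193 genes on the array, and there were 103 probe sets in all. None was listed for Ccnb1, which encodes cyclin B1, so no value is given for it. Probe sets were tested where they stood above the median of all values, an intensity of 99.1, on at least 2 arrays. That filter left 53 probe sets of 30 genes, namely 11 S phase genes, both G1 cyclins and 17 mitotic genes. The 14 genes measured but not tested were Tyms, Tk1, Cdc6, Bub1, Bub1b, Aurkb, Ube2c, Kif11, Kif20a, Cenpe, Ect2, Melk, Dlgap5 and Ndc80. Of the 30 tested genes, 7 (Birc5, Ccnb2, Mki67, Nusap1, Plk1, Prc1 and Tpx2) passed the filter only through pools of transgenic mice, at 8 probe sets, so medians are given below over every measured gene as well.

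RNA of mouse hippocampus was hybridised to 16 arrays, 1 array for each pool of 3 to 4 mice described as alike in age, sex and genotype. VP16-CREB is the transcription factor CREB fused to a strong viral activator, VP16, which makes it active without a signal, and A-CREB is a dominant negative protein that keeps CREB from DNA. All mice were labelled strain C57BL/6J. The tetO-VP16-CREB mice and their wild type littermates were raised on doxycycline (dox), which keeps a tetO transgene silent. In the 1 week cohort dox was withdrawn 1 week before the tissue was taken, at 3 weeks of age (2 pools per genotype), and in the 3 week cohort it was withdrawn 3 weeks before, at 6 weeks of age (3 pools per genotype). The A-CREB mice, labelled TetO-A-CREB-95 C57BL6 F1/J, and their wild type littermates had never received dox and were 6 weeks old (3 pools per genotype). The labels name the tetO transgenes and not their driver. In the published lines a transactivator under the CaMKII alpha promoter, active in forebrain neurons, turns the transgenes on. Younger A-CREB mice were not analysed here.

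Dividing cells copy their DNA in S phase, after the MCM helicase has been loaded at origins with the help of Cdt1, and PCNA then holds the polymerases on the template. Cyclin-dependent kinase 1 with cyclins A and B takes the cell into mitosis, where kinesins, the chromosomal passenger complex and the Aurora and Polo kinases order the chromosomes. E2F factors switch on many S phase genes, and the mitotic genes are repressed and later induced through the CHR element of their promoters. In the young hippocampus division is known mainly from the progenitors of the dentate gyrus and from glia. Which cells the transcripts came from was not measured here. A change in the number of dividing cells and a change in RNA per dividing cell, up or down, cannot be told apart in such samples.

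Values are the linear MAS5 intensities that the authors deposited. Differences are of log2(intensity + 10), which understates the change of dim probe sets, and a fold is of the intensity + 10. They were tested with limma, with Benjamini-Hochberg adjustment over 27044 probe sets, and those with an adjusted p under 0.05 were called. The 6 arrays of the 3 week cohort stood apart from the other 10. Their median intensity was 118.9 to 129.3 against 74.99 to 93.23, and their correlation with the other arrays was 0.885 to 0.933 (60 pairs of arrays) against 0.954 to 0.985 within groups (14 pairs). The transgene comparisons lie within cohorts and do not cross that gap. Markers of hippocampal neurons were measured on every array, with a summed intensity of 20320 to 35720 over 9 genes.

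1 week after dox withdrawal, the mitotic genes stood well above their controls in the VP16-CREB pools, and the S phase genes stood above them by less. The median log2 difference was 0.94 over all 28 measured mitotic genes, 26 of which had a difference above 0, and 0.38 over the 14 measured S phase genes, 10 of them above 0. Over all probe sets, with no filter, it was 0.03. Among the tested genes alone, where 7 mitotic genes entered only through transgenic pools, the medians were 0.99 and 0.43. Top2a and Cdk1 passed the test. These were 2 of 53 tested probe sets (3.77%), beside 0.218% of all tested probe sets called higher. None was called lower, beside 0.0185% of all. Over the array 92.2% of the calls were higher, and 80.6% when each array was centred on its median, which moved the median of all tested probe sets to -0.09. There were 45 tested probe sets above the median of all values in at least 1 control pool. Some of them, such as Cdk1, 1417911_at of Ccna2 and 1448226_at of Rrm2, had a single such control pool. These reached the 2 arrays of the filter only with transgenic pools. Of the 45, 15 had an unadjusted p under 0.05 and a higher value, and 0 a lower one. Among all 27044 tested probe sets, 992 were higher and 432 lower at such a p. Both VP16-CREB pools lay above both control pools at 44 of the 103 probe sets (42.7%), against 17.5% of all probe sets, and below them at 7 (6.8%), against 13.1%. At the mitotic probe sets alone the first count was 28 of 56 (50%). Probe sets of the same gene are not independent of each other.

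Top2a encodes topoisomerase II alpha, which untangles sister chromatids. At its tested probe set, 1454694_a_at, the 1 week controls read 77.4 and 57.3, and the VP16-CREB pools 238.6 and 270.7. The groups did not overlap, and the log2 difference was 1.79 ± 0.235 (SE), a fold of 3.45 with an adjusted p of 0.00584 (limma). The call was lost at each removal of a pool but that of control replicate 1: the adjusted p was 0.0602 without control replicate 2, 0.0523 without VP16-CREB replicate 1 and 0.0511 without VP16-CREB replicate 2. The other probe sets of Top2a, 1427724_at and 1442454_at, were below the median intensity on every array and showed no such difference, with means of 5.51 against 3.59 and of 31.3 against 49.5.

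Cdk1, the kinase that drives entry into mitosis, has a single probe set, 1448314_at. It read 54.2 and 53.0 in the controls and 147.2 and 201.9 in the VP16-CREB pools. The log2 difference was 1.52 ± 0.272, a fold of 2.87 (adjusted p = 0.0402, limma). The groups did not overlap, but the call was lost without any 1 of the 4 pools, with adjusted p-values from 0.126 to 0.225 and log2 differences from 1.31 to 1.74. It was lost under 7 of 11 processing alternatives too, no filter among them. The adjusted p reached 0.302 when only the groups compared were fitted (limma).

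Mki67, the gene of the proliferation antigen Ki-67, did not pass the test, and it entered only through transgenic pools. Its controls read 36.5 and 20.7 and its VP16-CREB pools 158.5 and 112.9, a log2 difference of 1.93 ± 0.661 (adjusted p = 0.589, limma). Its signal lay below the array median in both controls. Prc1, Racgap1 and Cdca8 came closest to the threshold among the other mitotic genes. Prc1 bundles the microtubules of the central spindle, and its intensity was 40.9 and 27.5 in the controls against 108.7 and 103.9 (log2 difference 1.41, adjusted p = 0.0637). It passed the filter only through these VP16-CREB pools, so its p is no independent support. Cdca8, or borealin, a subunit of the chromosomal passenger complex, read 85.7 and 109.1 against 246.0 and 191.8 (log2 difference 1.09, adjusted p = 0.148). Racgap1, a part of the centralspindlin complex, gave 128.3 and 93.3 against 268.1 and 201.3 at 1451358_a_at (log2 difference 1.02, adjusted p = 0.141). Ccna2, the gene of cyclin A2, read 41.0 and 64.6 against 137.8 and 138.5 at 1417911_at (log2 difference 1.265, adjusted p = 0.712). None of these 5 genes had overlapping pools there. At 1421546_a_at, the other tested probe set of Racgap1, the pools overlapped, with 115.5 and 67.9 against 137.2 and 107.5.

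Among the S phase genes at 1 week, Pcna, the gene of the polymerase clamp, had the lowest adjusted p without passing. It read 4042 and 4285 in the controls and 7942 and 7201 in the VP16-CREB pools, with a log2 difference of 0.86 ± 0.205 (adjusted p = 0.163, limma). The pools did not overlap, and the difference was about as large as that at 3 weeks, where the gene passed the test. For Rrm2, the small subunit of ribonucleotide reductase, the pools read 201.3 and 144.2 against 275.5 and 295.2 at 1434437_x_at (log2 difference 0.71, adjusted p = 0.481). Its further tested probe set, 1448226_at, read 55.9 and 13.6 against 58.8 and 104.3 (log2 difference 1.17, adjusted p = 0.641), and the pools were apart at both. Cdt1, which loads the replicative helicase, read 169.2 and 125.7 against 247.5 and 221.6 (log2 difference 0.65, adjusted p = 0.621). Of the helicase subunits, Mcm2 at 1448777_at read 102.8 and 97.2 against 169.3 and 143.9 (log2 difference 0.59, adjusted p = 0.575), but at 1434079_s_at 624.2 and 402.8 against 504.3 and 311.5, with overlap. Mcm6 did not share in this: at 1416251_at its controls read 770.0 and 687.0 and its VP16-CREB pools 705.9 and 693.0, which overlap.

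**Figure D1:**
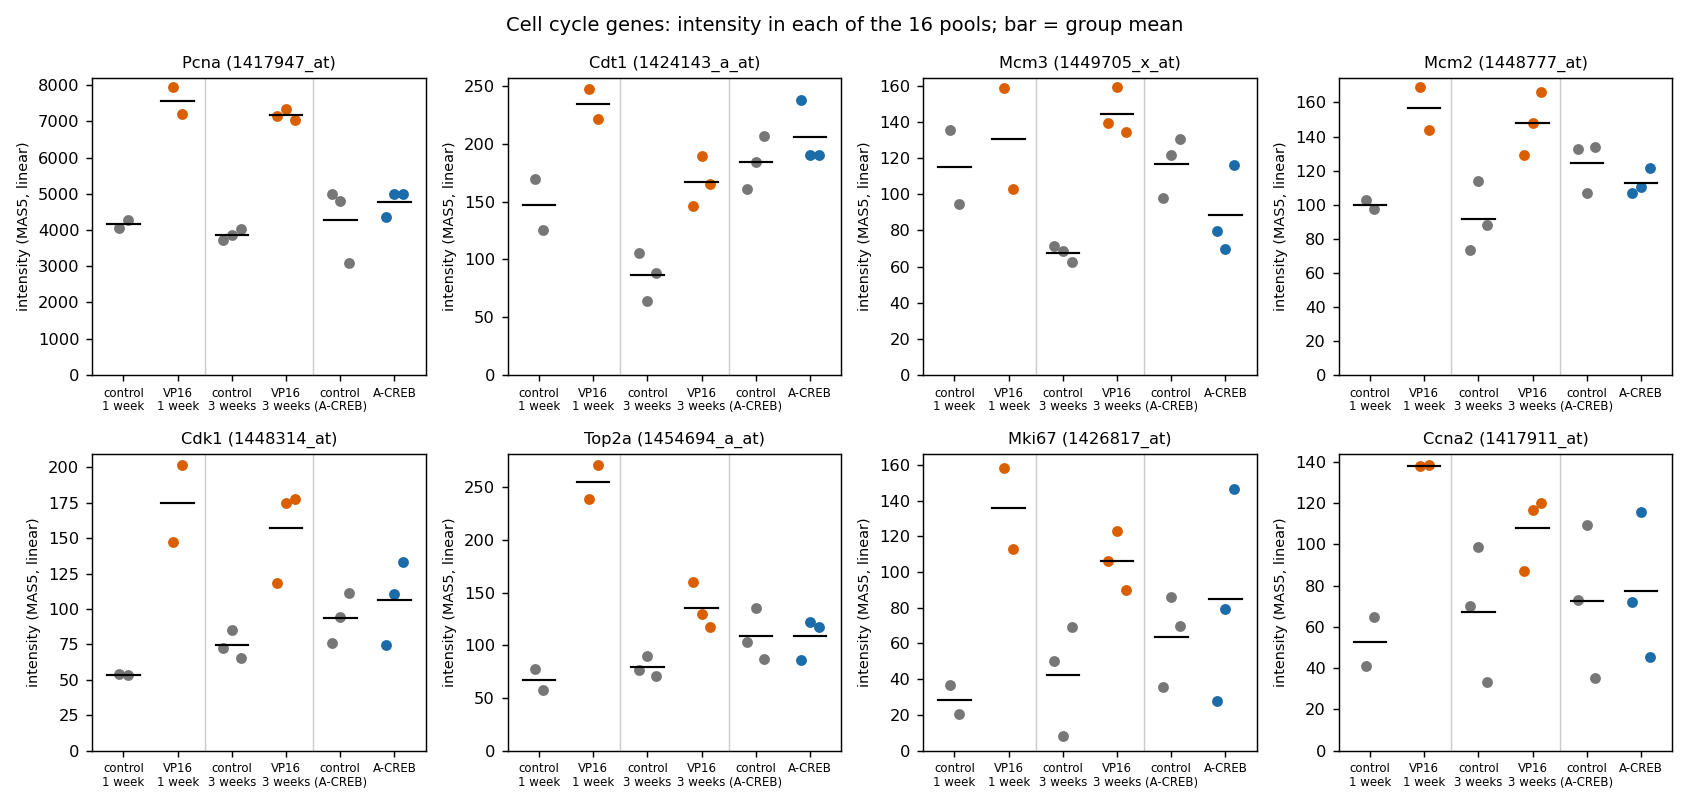
Intensity (MAS5, linear, axes from 0) of 8 probe sets in each of the 16 pools, in pairs of control (grey) and transgenic pools (orange for VP16-CREB at 1 and 3 weeks off dox, blue for A-CREB), with bars at the group means. Pcna stands at 7043 to 7942 in the 5 VP16-CREB pools and at 3085 to 5001 in the other 11, while Top2a is highest in the 2 pools of 1 week, at 238.6 and 270.7. The intensities are on the deposited scale, and array medians were higher in the 3 week cohort.

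The promoters of the genes on which these results turn are shown because the mitotic and S phase members differ in the elements they carry. Windows of 300 bases, 250 before to 50 after the start of transcription, were taken from RefSeq on the assembly GRCm38.p6, and 36 of the 45 genes had 1. Capitals mark, on either strand, the CHR element (TTTGAA or TTCGAA), 2 forms of the E2F site (TTTCGCGC or TTTGGCGC, and the core GGCGGGAA), the CCAAT box (CCAAT) and the cAMP response element that CREB binds, in its full form (TGACGTCA) and its short form (TGACG), which is contained in the full one. The window of Cdk1 lies at chr10:69352863-69353162, that of Top2a at chr11:99024140-99024439, that of Pcna at chr2:132253131-132253430 and that of Mcm3 at chr1:20820263-20820562, all on the minus strand, and each is written 5′ to 3′ along its gene.
Cdk1: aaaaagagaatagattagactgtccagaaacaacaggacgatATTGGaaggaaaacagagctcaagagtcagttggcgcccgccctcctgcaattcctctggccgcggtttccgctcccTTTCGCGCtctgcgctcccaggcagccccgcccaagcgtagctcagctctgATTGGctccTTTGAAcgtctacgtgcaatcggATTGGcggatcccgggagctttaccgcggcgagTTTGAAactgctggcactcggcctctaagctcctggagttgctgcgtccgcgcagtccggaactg
Top2a: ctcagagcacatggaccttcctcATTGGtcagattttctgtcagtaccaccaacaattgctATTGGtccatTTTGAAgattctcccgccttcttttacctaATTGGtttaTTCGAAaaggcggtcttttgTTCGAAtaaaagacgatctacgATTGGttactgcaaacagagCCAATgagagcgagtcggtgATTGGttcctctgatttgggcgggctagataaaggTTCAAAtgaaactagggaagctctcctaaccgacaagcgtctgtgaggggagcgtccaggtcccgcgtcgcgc
Pcna: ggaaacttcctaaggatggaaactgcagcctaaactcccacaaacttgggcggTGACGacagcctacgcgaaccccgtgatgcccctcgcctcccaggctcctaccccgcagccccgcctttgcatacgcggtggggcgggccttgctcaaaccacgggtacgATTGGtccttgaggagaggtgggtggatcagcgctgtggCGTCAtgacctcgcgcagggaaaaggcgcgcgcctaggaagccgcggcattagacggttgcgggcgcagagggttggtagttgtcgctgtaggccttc
Mcm3: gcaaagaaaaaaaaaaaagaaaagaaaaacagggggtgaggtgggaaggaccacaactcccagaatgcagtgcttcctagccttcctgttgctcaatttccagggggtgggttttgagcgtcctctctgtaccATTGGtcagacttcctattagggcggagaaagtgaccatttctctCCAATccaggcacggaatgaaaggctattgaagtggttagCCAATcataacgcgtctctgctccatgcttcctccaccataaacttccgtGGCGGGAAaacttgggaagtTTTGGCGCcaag

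In these windows Cdk1 holds 2 CHR elements, at 71 and 15 bases before the start, an E2F site and 3 CCAAT boxes. The Top2a window holds 4 CHR elements and 6 CCAAT boxes. That of Pcna has the short CRE at 2 places and a single CCAAT box, and that of Mcm3 has an E2F site, the E2F core and 3 CCAAT boxes. A CHR element was found in 17 of 23 mitotic members with a window (73.9%), in 2 of 13 S phase members (15.4%) and in 21.7% of all 27025 genes with a window. The E2F site showed the opposite order, with 5 of 13 S phase members (38.5%), 1 of 23 mitotic members (4.35%) and 0.929% of all genes. The core form was found in 15.4% of S phase members, 0.0% of mitotic members and 2.52% of all genes. CCAAT boxes were found in 61.5% of S phase members, 78.3% of mitotic members and 41.1% of all genes. The full CRE occurred in 3 of the 36 members (8.33%) and 2.03% of all genes, and the short form in 12 (33.3%) and 23.0%. None of the 6 genes called higher with VP16-CREB held the full CRE in its window, and 2 of them held the short form. A match is a run of letters and not a shown site, and the windows reach no further than 250 bases.

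After 3 weeks off dox, 5 of the cell cycle genes passed the test, all of them higher with VP16-CREB, and 4 of these belong to S phase: Pcna, Cdt1, Mcm2 and Mcm3, with Cdk1 as the mitotic member. The 5 called probe sets were 9.43% of the 53 tested, beside 3.28% of all tested probe sets called higher, and no member was called lower, beside 0.651% of all. The median log2 difference was 0.37 over the 14 measured S phase genes and 0.46 over the 28 measured mitotic genes, with 12 and 23 of them above 0, against -0.01 over all probe sets. It was 0.35 and 0.48 over the tested genes. The 3 VP16-CREB pools lay above the 3 control pools at 26 of 103 probe sets (25.2%), against 11.4% of all probe sets, and below them at 3 (2.91%), against 9.77%. Of the 45 probe sets above the median of all values in at least 1 control pool, 13 had an unadjusted p under 0.05 and a higher value, and 2 a lower one. Among all 27044 tested probe sets, 2424 were higher and 1219 lower at such a p.

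Pcna passed most firmly. Its controls read 3729, 3863 and 4036 and its VP16-CREB pools 7158, 7338 and 7043. The gap between the groups was far wider than the spread within them, and the log2 difference was 0.89 ± 0.167 (fold 1.85, adjusted p = 0.00691, limma). The call held under all 17 alternatives run for it, with log2 differences from 0.82 to 0.93. The other calls did not all hold when a pool was left out. The number of members called fell from 5 to 3 without control replicate 1, to 2 without control replicate 3, to 1 without VP16-CREB replicate 2 and to 2 without VP16-CREB replicate 3.

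Cdt1 read 105.7, 64.1 and 88.6 in the controls and 146.6, 189.7 and 165.1 with VP16-CREB at 1424143_a_at. These pools did not overlap (log2 difference 0.90 ± 0.188, adjusted p = 0.0137, limma). The adjusted p was 0.0701 without control replicate 2, 0.0767 without VP16-CREB replicate 2 and 0.059 without VP16-CREB replicate 3. Its other probe sets, which were not tested, gave means of 72.1 against 67.1 (1424144_at) and 3.48 against 7.38 (1455791_at).

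The MCM2 to MCM7 proteins form the 6 subunits of 1 helicase, yet their transcripts did not move alike. Mcm3 at 1449705_x_at read 71.2, 68.5 and 62.7 in the controls and 139.4, 159.3 and 134.4 with VP16-CREB (log2 difference 0.99 ± 0.207, adjusted p = 0.0137, limma). The suffix of this probe set marks probes that may also bind other transcripts. A further probe set, 1420028_s_at, read 99.4, 89.5 and 88.2 against 174.6, 144.0 and 180.1 and did not pass (log2 difference 0.78, adjusted p = 0.151). Of the 3 probe sets below the median on every array, 1426652_at read 7.16, 11.6 and 13.4 against 83.3, 56.3 and 77.3, and the others overlapped. The pools did not overlap at the 2 tested ones, and the call at 1449705_x_at was lost without control replicate 3 (adjusted p = 0.0621) or VP16-CREB replicate 2 (adjusted p = 0.0706). Mcm2 passed at 1448777_at, with 73.2, 113.9 and 88.0 against 128.9, 148.0 and 166.3 (log2 difference 0.645 ± 0.165, adjusted p = 0.0445), and lost the call under 12 of 16 alternatives. At its other probe set, 1434079_s_at, the pools overlapped, with 400.8, 160.0 and 353.6 against 285.7, 586.9 and 563.9.

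Mcm4 was close to the threshold at 1416214_at, where the controls read 366.6, 320.2 and 368.4 and the VP16-CREB pools 492.6, 522.1 and 469.9 without overlap (log2 difference 0.48 ± 0.134, adjusted p = 0.0695, limma). Mcm6 stood the other way. At 1416251_at its controls read 588.8, 571.9 and 582.7 and its VP16-CREB pools 502.5, 447.9 and 435.5, a log2 difference of -0.33 ± 0.142 with an adjusted p of 0.322, so that it did not pass. At 1438852_x_at the pools were apart in the same direction, with 257.1, 218.2 and 240.0 against 157.1, 175.0 and 183.8 (log2 difference -0.45, adjusted p = 0.506). The log2 differences of Mcm5 and Mcm7 lay between -0.08 and 0.24, and none of their probe sets passed. Ccne1, the gene of cyclin E1, which opens S phase, was also lower in each VP16-CREB pool at 1416492_at, with 261.2, 298.3 and 276.0 against 242.4, 171.1 and 99.8 (log2 difference -0.75, adjusted p = 0.132). At its other tested probe set, 1441910_x_at, the pools overlapped, with 374.2, 413.5 and 351.7 against 439.7, 230.5 and 295.5 (log2 difference -0.28, adjusted p = 0.788). Ccne1 was chosen for mention after its values were seen.

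Of the mitotic genes at 3 weeks, Cdk1 read 72.4, 85.1 and 65.4 in the controls and 118.2, 175.1 and 177.7 with VP16-CREB, with no overlap (log2 difference 0.97 ± 0.222, fold 1.96, adjusted p = 0.0242, limma). It was the single gene of the 45 to pass at both times, and at 3 weeks the call was lost without control replicate 1 or 3 or VP16-CREB replicate 2 or 3, with adjusted p-values from 0.0886 to 0.126. The call was lost too with no filter (adjusted p = 0.062) and with arrays centred on the median (adjusted p = 0.053, limma). Top2a read 76.6, 89.7 and 70.4 against 159.7, 129.7 and 117.7 and missed the threshold (log2 difference 0.71 ± 0.192, adjusted p = 0.061). Mki67 gave 50.2, 8.16 and 69.0 against 105.9, 123.0 and 89.8, apart but widely spread in the controls (log2 difference 1.39 ± 0.54, adjusted p = 0.244). Ccnb2, the gene of cyclin B2, read 58.5, 33.2 and 65.9 against 95.2, 103.7 and 140.2 (log2 difference 1.00, adjusted p = 0.109). Like Mki67, it entered only through transgenic pools. Prc1, whose pools were apart at 1 week, overlapped at 3 weeks, with 68.6, 63.3 and 61.6 against 37.4, 76.8 and 64.2.

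Of the D-type cyclins, which carry growth signals into G1, neither passed at either time. Ccnd1 at 1417420_at read 1406, 1309 and 1468 in the 3 week controls and 1695, 2074 and 2255 with VP16-CREB, without overlap (log2 difference 0.515 ± 0.213, adjusted p = 0.286, limma). Its other 2 probe sets gave log2 differences of 0.34 and 0.15. Ccnd2 had 7 tested probe sets, all with log2 differences between -0.17 and 0.07 at 3 weeks. At 1416122_at the controls read 2478, 3354 and 2486 and the VP16-CREB pools 2974, 2414 and 2272, which overlap. At 1 week the same probe set read 2455 and 2084 against 2423 and 2366, and Ccnd1 at 1417420_at 1208 and 1180 against 1314 and 1408.

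**Figure D2:**
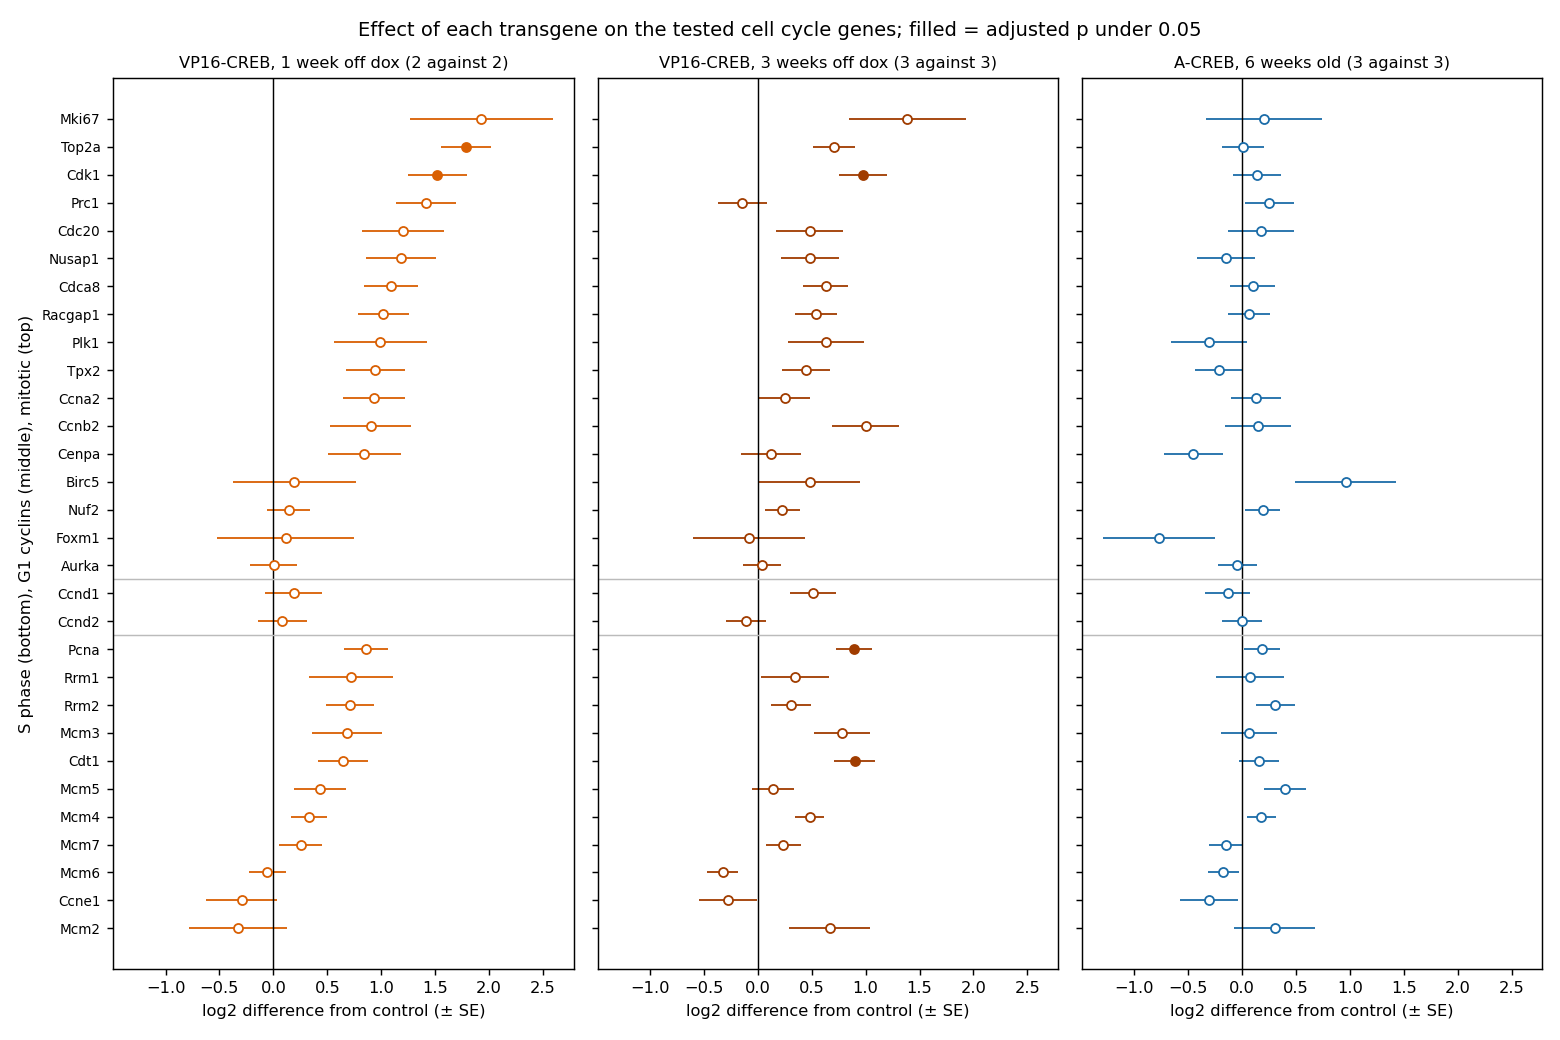
Log2 difference from control littermates (points, with the standard error of the fit) of each of the 30 tested genes at its probe set of highest mean, for VP16-CREB at 1 and 3 weeks off dox and for A-CREB, with filled points where the adjusted p was under 0.05. Mcm2 and Mcm3 were called at 3 weeks at other probe sets than those plotted, and 7 of the 17 mitotic genes plotted (Birc5, Ccnb2, Mki67, Nusap1, Plk1, Prc1 and Tpx2) were tested only through their level in transgenic pools.

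Markers of some other cells also differed between the genotypes in the same pools. Of 17 genes of microglia and macrophages, cells that can divide in the injured brain, 4 were called higher at 1 week and 16 at 3 weeks. Their summed intensity was 15070 to 21020 in the 1 week controls and 30820 to 35630 with VP16-CREB, and 15140 to 15840 against 64100 to 77510 at 3 weeks. Their median log2 difference was larger at 3 weeks (2.282) than at 1 week (0.975). That of the measured mitotic genes was smaller at 3 weeks (0.46) than at 1 week (0.94). Of 12 markers of astrocytes and neural stem cells, 2 were called higher at 1 week (Gfap and Vim) and 4 at 3 weeks (Aqp4, Gfap, Sox9 and Vim), with a summed intensity of 40920 to 42390 against 53460 to 61410 and of 41230 to 48590 against 63140 to 75330. None of the 10 tested markers of neuronal progenitors and immature neurons was called at either time, nor any of 6 of oligodendrocyte precursors. The progenitor markers summed to 18460 to 18770 against 18400 to 20660 at 1 week and to 15970 to 16810 against 16970 to 17890 at 3 weeks, with Igfbpl1 and Draxin below the median intensity on every array. Of 9 markers of hippocampal neurons, none was called at 1 week, where 7 lay below 0 and the summed intensity was 32140 to 34800 against 24060 to 26560, without overlap. At 3 weeks 4 were called lower (28770 to 32680 against 20320 to 22360). Of 7 markers of T, B and other leukocytes, 6 lay below the median intensity on every array. The part of these cells in the rise of the cell cycle genes was not tested.

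The effect of VP16-CREB at 3 weeks minus that at 1 week was then tested as 1 contrast. The median was -0.47 over the 28 measured mitotic genes and 0.00 over the 14 S phase genes (-0.50 and 0.01 over those tested). No member passed in either direction, beside 0.0% of all tested probe sets higher and 0.0037% lower (limma). At an unadjusted p under 0.05 there were 2 mitotic probe sets lower and 1 S phase probe set higher, beside 516 lower and 833 higher among all 27044 tested. The lowest adjusted p belonged to Prc1, whose effect was 1.56 ± 0.36 lower on the log2 scale at 3 weeks (adjusted p = 0.267), and next came Top2a (1.08 ± 0.304 lower, adjusted p = 0.512). Prc1 was tested only because both VP16-CREB pools of 1 week were high, so its value is no support for a smaller effect at 3 weeks. The probe set on the other side was 1449705_x_at of Mcm3 (0.83 ± 0.327 higher, adjusted p = 0.856). The larger effect on mitotic genes at 1 week is therefore a description of medians, and the pools of both times differed in age and in time off dox together.

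**Figure D3:**
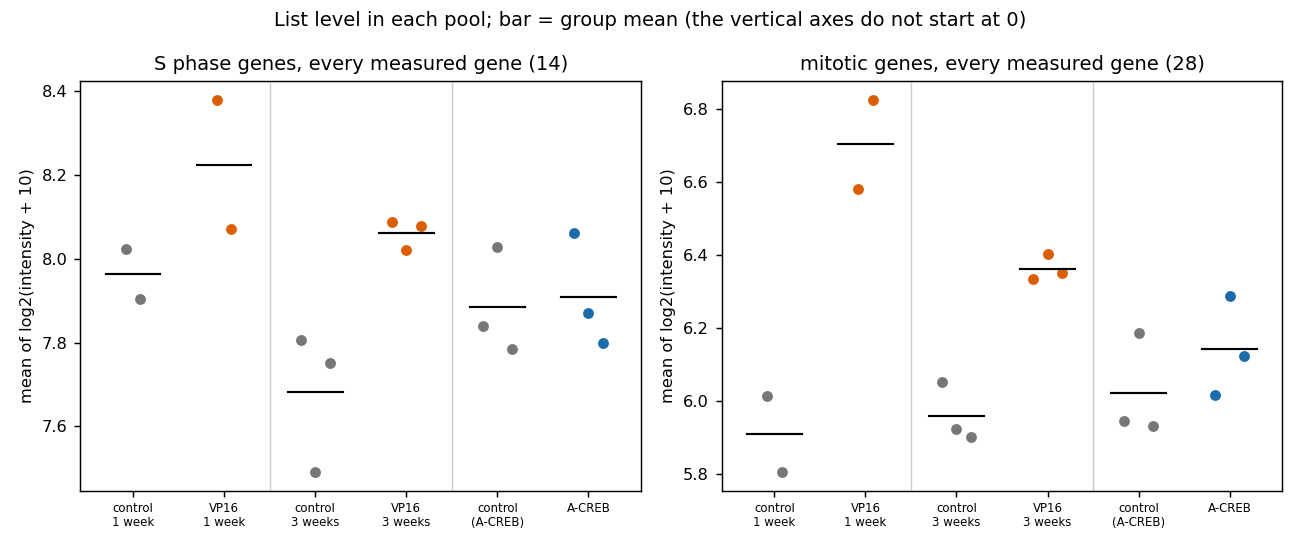
Mean of log2(intensity + 10) over every measured S phase gene (14, left) and mitotic gene (28, right) in each of the 16 pools, with bars at the group means, on axes that do not start at 0. The mitotic mean is 6.58 and 6.83 in the VP16-CREB pools of 1 week against 5.81 and 6.01 in their controls, and the A-CREB pools overlap theirs.

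Over every measured gene, the mean log2 level of the mitotic list was 6.01 and 5.81 in the 1 week controls and 6.58 and 6.83 with VP16-CREB. At 3 weeks it was 6.05, 5.93 and 5.90 against 6.33, 6.40 and 6.35. The pools of both genotypes were apart at both times. For the S phase list the 1 week pools read 8.02 and 7.91 against 8.38 and 8.07, and those of 3 weeks 7.81, 7.49 and 7.75 against 8.09, 8.02 and 8.08. These were apart too, by less than 0.05 at the nearest pools of 1 week.

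With A-CREB no cell cycle gene passed the test. The share called was 0.0% higher and 0.0% lower among all tested probe sets too, although 619 and 552 of them had an unadjusted p under 0.05 (limma). Of the 53 member probe sets 1 had such a p, 1416664_at of the spindle checkpoint gene Cdc20, which read 123.4, 112.8 and 133.9 in the controls and 104.4, 85.0 and 82.6 with A-CREB (log2 difference -0.41 ± 0.174). The median log2 difference was 0.16 over the tested S phase genes and 0.10 over the mitotic ones. Pools did not overlap at 6 of 103 probe sets higher (5.83%), against 4.06% of all, and at 3 lower (2.91%), against 3.73%. Pcna read 4981, 4796 and 3085 in the controls and 4354, 4992 and 5001 with A-CREB. Cdk1 gave 76.3, 94.4 and 111.2 against 74.3, 110.4 and 133.5, and Top2a 102.6, 135.4 and 87.2 against 86.3, 122.4 and 117.1. All 3 overlapped, with log2 differences of 0.19 ± 0.167, 0.14 ± 0.222 and 0.01 ± 0.192. Mki67 (35.5, 86.0 and 69.8 against 28.0, 79.3 and 146.7) and Mcm6 at 1416251_at (665.2, 545.3 and 731.1 against 633.2, 499.8 and 579.4) overlapped as well. Replicate 1 of both genotypes of this cohort read 34.5 and 63.4 for Xist, against 3611 to 6231 on the other arrays of the series, so the pools of the cohort were not of 1 sex. A Y-linked gene read 487.4 and 297.6 in these pools and 86.5 in control replicate 2, whose Xist was 3611. In the remaining pools of the series it read 0.61 to 23.7. Whether control replicate 2 held both sexes was not tested. Leaving out any 1 of the 6 pools of this cohort gave no call among the members.

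The effect of VP16-CREB at 3 weeks differed from that of A-CREB at 1 member probe set, 1449705_x_at of Mcm3, beside 0.828% of all tested probe sets higher and 0.0592% lower. There Mcm3 read 97.7, 121.5 and 130.7 in the A-CREB controls and 79.7, 69.7 and 116.3 with A-CREB. The difference of effects was 1.37 ± 0.293 on the log2 scale (adjusted p = 0.0467, limma). The call was lost under 15 of 22 alternatives, with adjusted p-values up to 0.136. At 1420028_s_at of the same gene the A-CREB controls read 84.2, 169.6 and 150.6 and the A-CREB pools 156.2, 115.8 and 137.8, which overlap. Cdk1 and Pcna did not pass in this contrast (0.83 ± 0.314, adjusted p = 0.389, and 0.70 ± 0.236, adjusted p = 0.296).

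The wild type littermates allowed the ages to be compared, as 3-week-old mice of the 1 week cohort against 6-week-old mice of the 3 week cohort and of the A-CREB cohort. These comparisons share control pools, and age, cohort, array group and dox history cannot be told apart in them. Between the 6-week-old controls of the 3 week cohort and the 3-week-old controls, 6 cell cycle genes passed, all lower at 6 weeks: Rrm2, Mcm5, Cdt1, Nuf2, Rrm1 and Mcm4. They were 11.3% of the tested member probe sets, beside 4.25% of all called lower, and no member was called higher, beside 13.7% of all. Against the 6-week-old controls of the A-CREB cohort none passed in either direction, beside 0.0% and 0.0% of all tested probe sets (937 higher and 567 lower at an unadjusted p under 0.05). Between both groups of 6-week-old controls, 5 were lower in the 3 week cohort, Rrm2, Cdt1, Rrm1, Mcm4 and Mcm3 (9.43%), beside 3.63% of all called lower, and none higher, beside 13.9% of all. Without replicate 1 of the 3-week-old controls no call was left of the 6, and without replicate 2 of the 6-week-old controls 3 were left.

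Rrm2 and Rrm1, the subunits of the reductase that makes deoxynucleotides, show the pattern. At 1434437_x_at Rrm2 read 94.0, 72.4 and 78.8 in the 6-week-old controls of the 3 week cohort, 201.3 and 144.2 in the 3-week-old controls and 167.8, 205.3 and 154.9 in the 6-week-old controls of the A-CREB cohort. The cohort with 3 weeks off dox was apart from both others, with log2 differences of -0.98 ± 0.203 (adjusted p = 0.00401) and -1.02 ± 0.182 (adjusted p = 0.00125, limma). The other tested probe set of Rrm2, 1448226_at, was not lower than in the 3-week-old controls (49.0, 40.8 and 32.8 against 55.9 and 13.6). Rrm1 at 1415878_at read 176.8, 248.3 and 189.5 in that cohort, 351.1 and 277.4 in the 3-week-old controls and 370.0, 322.4 and 316.2 in the A-CREB controls. Its other tested probe set, 1448127_at, overlapped with both and was not called (299.1, 238.6 and 261.7 against 518.9 and 287.7, and against 315.7, 507.5 and 257.4). Cdt1 read 105.7, 64.1 and 88.6 in the 3 week cohort, 169.2 and 125.7 in the 3-week-old controls and 161.0, 184.1 and 206.8 in the A-CREB controls.

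Mcm5 at 1436808_x_at fell to 185.1, 164.3 and 193.8 from 417.0 and 321.5 in the 3-week-old controls, a log2 difference of -0.98 ± 0.22 (adjusted p = 0.00681, limma). In the A-CREB controls it read 287.4, 245.7 and 274.4, between the others. The other tested probe set of Mcm5, 1415945_at, overlapped. Nuf2, a kinetochore gene, was the single mitotic member called, with 217.0, 201.7 and 254.8 against 354.7 and 357.1 (log2 difference -0.65 ± 0.181, adjusted p = 0.024). Mcm4 at 1416214_at read 366.6, 320.2 and 368.4 against 529.2 and 502.4 (log2 difference -0.54 ± 0.15, adjusted p = 0.0229).

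Set against the other controls, most tested S phase members were lower in the 3 week cohort. In that 3 week cohort these members had a median log2 difference of -0.53 from the 3-week-old controls and of -0.46 from the A-CREB controls, and 10 of 11 lay below 0 in each. Over the 14 measured ones the medians were -0.36 and -0.41. S phase genes outside the members did not share this. Of 24 tested, 13 lay below 0 and 11 above in each comparison, with medians of -0.003 and -0.066. Cdc45 was called higher in both comparisons, Gins2 higher than in the A-CREB controls, and Rpa1 lower than in the 3-week-old controls. The mitotic genes had medians of 0.18 and -0.19 over those tested, and of 0.00 and -0.17 over the 28 measured. Between the A-CREB controls and the 3-week-old controls the S phase median was 0.01 and the mitotic median 0.31, with Cdk1 (log2 difference 0.70 ± 0.248, adjusted p = 0.694) and Top2a (0.61 ± 0.215, adjusted p = 0.679) higher in every 6-week-old pool without passing. Scaling matters here, because the arrays of the 3 week cohort have a higher median. Centring each array on its median moved the median of all tested probe sets from 0.07 to -0.48 in the comparison with the 3-week-old controls, and the share of calls that were higher from 76.4% to 19.0% (55.0% after quantile normalization). In the comparison with the A-CREB controls it moved from 0.05 to -0.48, and that share from 79.3% to 18.1% (56.0% after quantile normalization). Relative to the median of all probe sets, the S phase members stood at -0.59 against the 3-week-old controls and at -0.51 against the A-CREB controls. Centring shifts all probe sets of an array alike and cannot change these values. After quantile normalization they were -0.66 and -0.58. The median of the tested mitotic genes against the 3-week-old controls changed sign under both scalings, to -0.36 in each. Relative to all probe sets it was 0.12, which centring cannot change either, and -0.31 after quantile normalization. Markers of the choroid plexus also differed between these controls, with 7 of 8 called lower than at 3 weeks of age and 6 of 8 lower than in the A-CREB cohort, and their summed intensity was 15310 to 37410 against 35500 to 44230 and 32610 to 44190. Other cell type markers were lower as well. Of 6 markers of oligodendrocyte precursors, Gpr17 was called lower than at 3 weeks of age, and Gpr17, Olig1 and Olig2 lower than in the A-CREB cohort, with summed intensities of 7186 to 8572 against 8925 to 11050 and 9856 to 13020. Of 7 myelin markers, Mobp and Mog were called lower in the former comparison, and Cnp, Mal, Mobp and Mog in the latter (53440 to 68280 against 59420 to 70530 and 70590 to 80120). Of 10 tested markers of neuronal progenitors and immature neurons, Eomes and Sox11 were called lower and Dcx higher than at 3 weeks of age, and Dcx and Sox4 lower than in the A-CREB cohort (15970 to 16810 against 18460 to 18770 and 18320 to 20220). Astrocyte and stem cell markers moved both ways, with Gfap called lower in both comparisons and Slc1a3 higher. The part of these cell types and of dissection in the S phase difference was not tested.

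**Figure D4:**
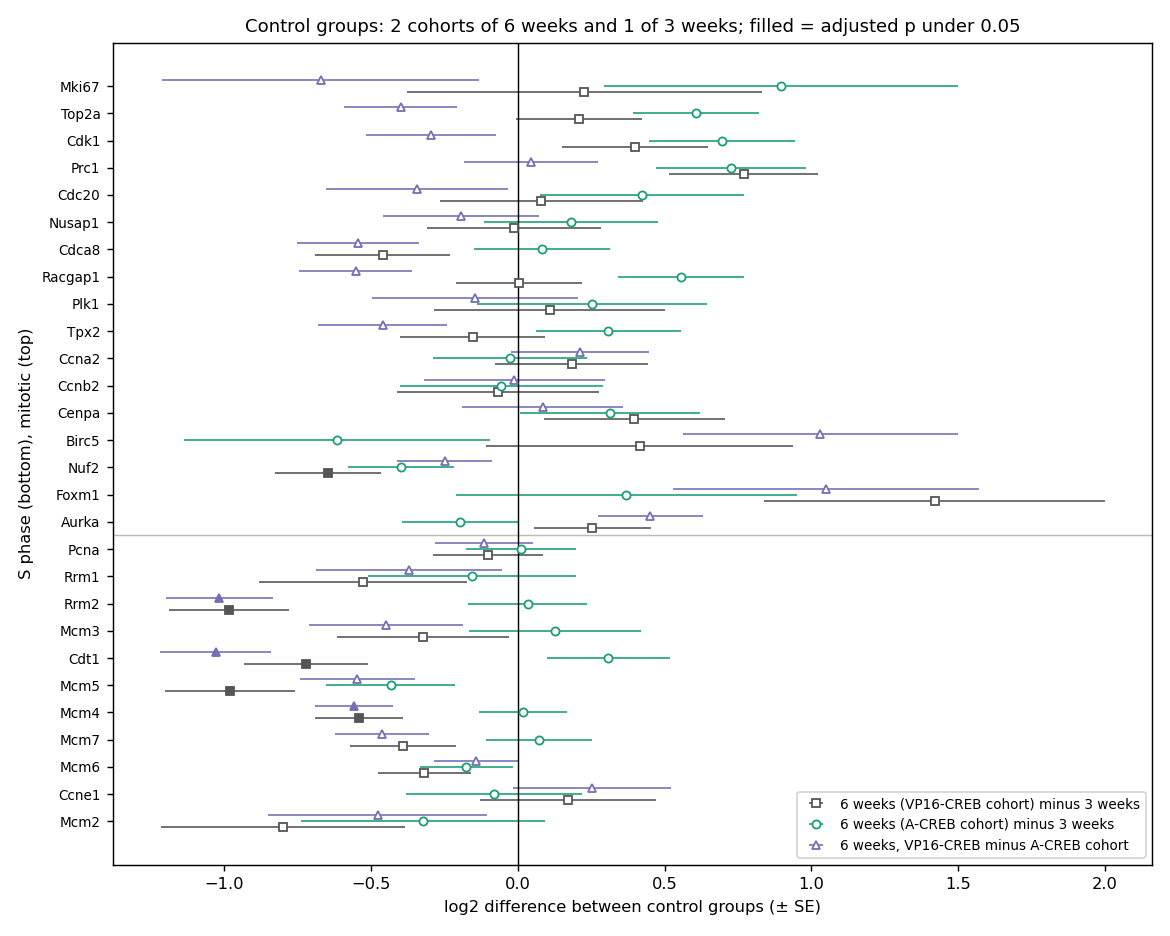
Log2 difference (points, with the standard error of the fit) of the tested S phase and mitotic genes between groups of wild type littermates, with filled points where the adjusted p was under 0.05. Rrm1 and Mcm3 were called at other probe sets than those plotted. Squares set the 6-week-old controls of the 3 week VP16-CREB cohort against the 3-week-old controls, circles do the same for the 6-week-old controls of the A-CREB cohort, and triangles compare both groups of 6 weeks. Most of these S phase members lie left of 0 for squares and triangles and near 0 for circles.

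The controls also bear on how the levels with VP16-CREB read across cohorts, which were not tested. At 3 weeks off dox Cdt1 with VP16-CREB stood at 146.6 to 189.7, within or near the range of the 3-week-old controls (125.7 to 169.2) and the A-CREB controls (161.0 to 206.8). Mcm3 at 1449705_x_at stood at 134.4 to 159.3, near the upper end of the 3-week-old controls (94.5 to 135.4) and of the A-CREB controls (97.7 to 130.7), or above it. Pcna, in contrast, was higher in all 5 VP16-CREB pools (7043 to 7942) than in any of the other 11 (3085 to 5001). Array medians were 118.9 to 129.3 in the 3 week cohort and 74.99 to 93.23 on the other arrays. These readings across cohorts therefore hold for the deposited scale only.

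Other genes of the cycle, listed by role, were set beside the members. Of 31 other S phase genes, such as the GINS, RFC and RPA subunits, 24 were tested and none passed at either time with VP16-CREB, and their median log2 differences were 0.06 at 3 weeks and 0.07 at 1 week. Of 30 other mitotic genes 17 were tested, with medians of 0.43 and 0.53. Of these 2 rose at 3 weeks and none passed at 1 week. Espl1, the gene of separase, read 37.6, 56.9 and 64.4 in the 3 week controls and 140.1, 99.3 and 86.6 with VP16-CREB (log2 difference 0.91, adjusted p = 0.0413, limma). Hmgb2, a chromatin protein of dividing cells, read 54.6, 44.2 and 62.9 against 81.3, 123.1 and 156.4 at 1452534_a_at (log2 difference 1.00, adjusted p = 0.0315), while its other tested probe set did not pass (adjusted p = 0.755).

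Among the called genes of the cycle, the largest log2 difference was that of an inhibitor. Cdkn1a encodes p21, which blocks cyclin-dependent kinases and binds PCNA. At 1424638_at it read 230.8, 162.6 and 199.9 in the 3 week controls and 861.5, 1173 and 1308 with VP16-CREB, a log2 difference of 2.43 (adjusted p = 4.64e-05, limma). At 1421679_a_at it read 7.67, 8.38 and 5.25 against 143.9, 74.4 and 164.8 (log2 difference 2.95, adjusted p = 0.0094). The groups were far apart at both, but at 1421679_a_at the 3 week controls lay near the floor. There the 1 week controls read 115.6 and 122.7, against 211.4 and 154.8 with VP16-CREB, and the A-CREB controls 57.1, 76.3 and 4.41. Cdkn1a was called lower in the 3 week controls than in the 3-week-old controls and than in the A-CREB controls. At 1 week Cdkn1a did not pass with VP16-CREB, with 423.6 and 285.1 against 603.5 and 789.0 at 1424638_at (adjusted p = 0.465). Cdk6, a partner of the D-type cyclins, passed at 3 weeks at 1435338_at, with 76.6, 125.5 and 62.8 against 178.5, 183.2 and 203.6 (log2 difference 1.06, adjusted p = 0.00898), but its other tested probe set, 1455287_at, gave a difference of 0.03. None of the 11 tested pocket protein and E2F genes passed at either time. With A-CREB no gene of these lists passed.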

How the data were processed

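Expression was measured in 16 RNA pools of mouse hippocampus on Affymetrix mouse genome arrays. The deposited values are intensities that the authors computed with MAS5, per the submitters' processing notes, with the version not given in the sources used here. The mean without the outer 2% at each end was 500.0 on every array, so arrays had been scaled to it. MAS5 subtracts mismatch signal, which leaves low intensities noisy, and no detection call was used. Of 45101 probe sets, 64 control probe sets were left out, and 34945 had 1 gene symbol, 932 several and 9160 none. Probe sets above the median on at least 2 arrays were tested (27044, 60% of the rest). All arrays entered 1 linear model with a term for each group (lmFit and eBayes, limma 3.58.1, R 4.3.3; 10 residual and 3.44 prior degrees of freedom), and the method was tested on simulated data. The probe set of highest mean stands for a gene in medians. The number of arrays limits the precision. Replicates are separate pools of mice, and p-values measure the spread between these pools.

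The members, the other lists and the rule for genes named with full values were chosen with earlier results of these data known. The rule took each member called in a transgene comparison or difference of effects, up to 6 per direction in each control comparison, and Cdk1, Top2a, Mki67, Mcm2, Mcm6, Pcna, Ccnd1 and Ccnd2, and up to 4 called genes of each other list. Other genes given with values were picked after their values were seen.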

Additional observations from a re-analysis of the deposited data

Results flagged for a closer look

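The effects of VP16-CREB at 3 weeks off dox and of A-CREB at 6 weeks of age differed at 1 probe set of the cell cycle genes. Mcm3 at 1449705_x_at had a difference of effects of 1.373 on the log2 scale (adjusted p = 0.0467, limma), from 0.99 with VP16-CREB and -0.38 with A-CREB. It was higher in 3 of 3 VP16-CREB pools than in the 3 controls of its cohort, while the A-CREB pools overlapped theirs. Those 3 week controls (62.7 to 71.2) were called lower than the A-CREB controls (97.7 to 130.7). They also lay below the 3-week-old controls (135.4 and 94.5), and the VP16-CREB pools stood at 134.4 to 159.3. The other tested probe set of the gene, 1420028_s_at, did not pass. The call at 1449705_x_at was lost in 10 of 12 fits that each left out 1 pool. Groups held 2 or 3 pools, too few to tell whether any single pool was an outlier.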

How the results depend on the processing

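The 5 members called higher at 3 weeks of VP16-CREB became 3 with no filter, 2 with arrays centred on the median, 16 (and 2 lower) with array weights and 3 with a replicate block, and ranged from 1 to 4 (0 to 1 lower) with each pool left out. The 2 called at 1 week became 0 when only the groups compared were fitted, 1 with no filter, quantile normalization, centring, trend and robust variances, array weights or the replicate block, and 0 to 1 with each pool left out. The mitotic median at 1 week was 0.847 with a pseudocount of 25 and 0.845 after quantile normalization, and the S phase median was 0.291 to 0.611 with each pool left out. Centring moved the median of all tested probe sets at 1 week from 0.02 to -0.09, and the share of calls that were higher from 92.2% to 80.6%. For the effect at 3 weeks minus that at 1 week, quantile normalization gave 20 higher and 3 lower probe sets over the array in place of 0 and 1, and the S phase median was -0.21 to 0.04 with each pool left out. The 1 call against A-CREB became 0 with no pseudocount, no filter, quantile normalization, centring, trend and robust variances or 1 probe set per gene, 3 with array weights, and 0 to 1 with each pool left out, where the mitotic median was 0.41 to 0.723.

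Between the controls of the 3 week cohort and those of 3 weeks of age, members called higher became 1 with no pseudocount, 2 with only the groups compared and 1 with array weights. The 6 called lower became 2 with no filter or only the groups compared, 10 after quantile normalization, 17 after centring, and 0 to 5 with each pool left out. The S phase median was -0.712 and -1.07 after quantile normalization and centring (-0.663 to -0.238 with each pool left out), and the mitotic median -0.363 and -0.358 (0.019 to 0.397). Against the A-CREB controls the member called higher was 1 with no filter or array weights, and the 5 lower became 14, 20, 3 and 10 with quantile normalization, centring, 1 probe set per gene and array weights. The S phase median was then -0.634 and -0.99 after quantile normalization and centring, and the mitotic median -0.687, -0.72 and, with array weights, -0.05 (-0.219 to -0.037 with each pool left out). Between the A-CREB controls and those of 3 weeks of age, the S phase median was -0.193 to 0.053 and the mitotic median 0.071 to 0.391 with each pool left out. The cause of these shifts was not tested. No called value changed sign under any alternative. With 1 pool left in a 1 week group, its spread was taken from the other groups. Same-numbered pools of both genotypes did not deviate together in every pair (correlations of -0.164, -0.228 and 0.218 at 3 weeks, -0.052, 0.407 and 0.265 with A-CREB, and 0.153 at 1 week over 2 pairs), so the main model has no replicate block.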
